A study of Mus musculus with 2 samples.

Results

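Heat shock proteins of the HSP70, HSP90 and HSP60 families that work outside the endoplasmic reticulum were examined in granulocyte-monocyte progenitors (GMP), marrow precursors of neutrophils and monocytes. The genes were taken by name. They are Hspa8, Hspa1a, Hspa1b, Hspa4, Hsp90aa1, Hsp90ab1 and the small heat shock protein Hspb1 in the cytosol, and Hspa9, Hspd1 and Hspe1 in mitochondria. All 10 were found among the 69691 rows of the gene tables, of which 21474 are protein-coding genes. The series holds 1 group of 2 total RNA libraries, each made from a pool of 100 primary GMP of male C57BL/6J mice aged 5 to 6 weeks, with RNA spike-ins added. No genotype, treatment or second population was compared. The labels give a single donor identifier to both libraries and do not state whether the cells came from separate animals. Every SD over the 2 libraries below is thus a measure of how far these libraries lie apart, and that distance may be technical.

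The expected counts (estimated reads per gene) summed to 40509954 in replicate 1 and to 35675702 in replicate 2. All 8 GMP marker genes reached 1 TPM (a level per transcript length, scaled to a fixed total) in both libraries. The highest, Mpo, stood at 6332 and 6602 TPM. Of all protein-coding genes, 45.6% reached 1 TPM in both libraries, and no marker list was tested against that share. Among 5 markers each, the stem cell list had 0 genes at that level in both libraries, with a summed level of 1.6 and 1.35 TPM. Its highest gene was Procr at 1.58 and 0.420 TPM, Mecom had 0.010 and 0.920 TPM, and Ly6a and Hoxb5 had 0 counts. The erythroid list also had 0 genes at that level, with a summed level of 0.370 and 2.02 TPM. Its highest gene was Hba-a1 at 0 and 1.34 TPM, and Hbb-bs had 0 counts. The megakaryocyte list reached it with 1 gene, Itga2b at 8.15 and 6.00 TPM, and the macrophage list with 2, of which Adgre1 was the higher at 4.06 and 3.11 TPM. The lymphoid list reached it with Nkg7 alone, at 273 and 260 TPM, while Cd3e, Cd79a and Il7r had 0 counts. In pooled cells, fewer cells expressing a gene and less RNA per cell cannot be told apart.

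Heat shock proteins are chaperones that bind unfolded or partly folded proteins and help them reach or keep their shape. HSP70 proteins bind short hydrophobic stretches in a cycle driven by ATP, with J-domain proteins delivering clients and nucleotide exchange factors releasing them. HSP90 proteins act later, on nearly folded clients such as kinases and steroid receptors, together with cochaperones. HSP60 and its lid HSP10 form the chamber in which proteins fold inside mitochondria. Some of these genes are expressed at all times, and others are induced by heat shock factor 1 when proteins unfold, through heat shock elements in their promoters.

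The 10 genes together made up 2899 TPM in replicate 1 and 3030 TPM in replicate 2, with a mean of 2964 ± 92.6 TPM (SD, n = 2). This was 0.588% and 0.614% of the TPM of all protein-coding genes. Of the 10 genes, 9 reached 1 TPM in both libraries, beside 45.6% of all protein-coding genes. The exception was Hspb1, which had 0 counts in both, as did 42.5% of protein-coding genes. The median level of the 10 was 127 TPM, against 0.550 TPM for all protein-coding genes and 13.3 TPM for those of 1 TPM or more on average. The 7 cytosolic genes carried 83.8% and 83.4% of the summed level, and the 3 mitochondrial genes carried 16.2% and 16.6%. Hspa8 and Hsp90ab1 alone carried 70.1% and 69.1%.

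**Figure D1:**
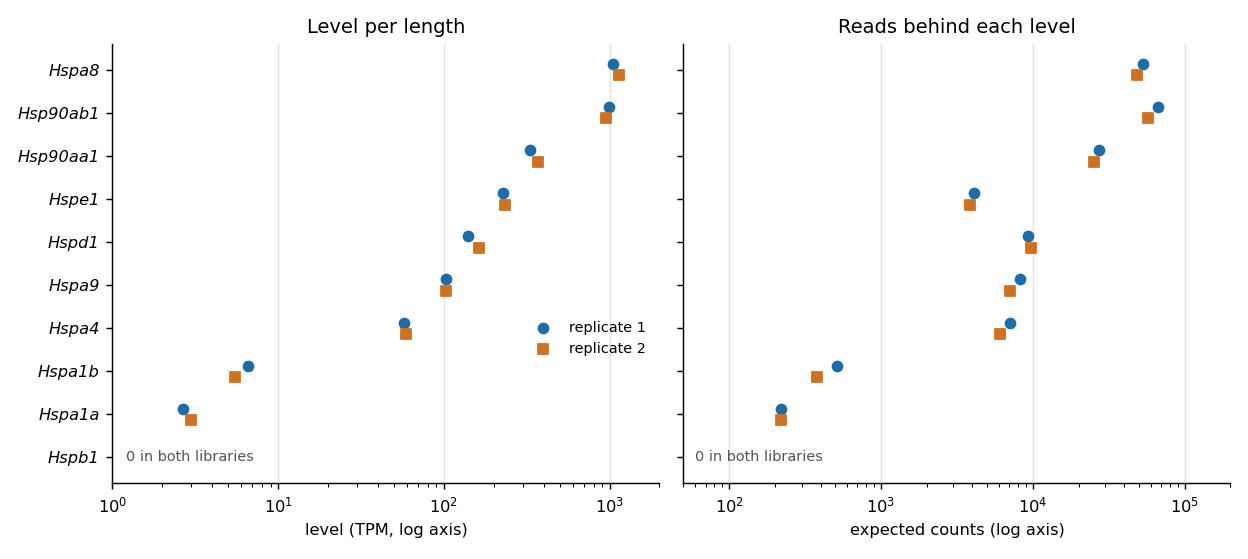
Level in TPM (left, log axis) and expected counts (right, log axis) of each gene in replicate 1 (circles) and replicate 2 (squares), ordered by mean TPM. Hspa8 and Hsp90ab1 lie between 951 and 1142 TPM, Hspa1a and Hspa1b lie below 10 TPM, and Hspb1 is at 0 in both libraries.

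Hspa8 encodes HSC70, the constitutive cytosolic HSP70, and was the highest of the 10. Its level was 1043 TPM in replicate 1, with 1142 TPM in replicate 2, a mean of 1092 ± 70.1 TPM (SD, n = 2), from 53248 and 48717 counts. It ranked 88 by mean level among the 21474 protein-coding genes. The gene (ENSMUSG00000015656) lies on the plus strand of chromosome 9, from 40800984 to 40810087 in GRCm38. Snord14c, Snord14d and Snord14e, small nucleolar RNA genes inside its span, had 0 counts in both libraries, for which the labels give a size range above 200 bases.

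Hspa1a and Hspa1b encode the inducible cytosolic HSP70 and are neighbours on the minus strand of chromosome 17, at 34969190 to 34972156 (ENSMUSG00000091971) and 34956436 to 34959238 (ENSMUSG00000090877). Their transcripts were 99.2% identical over 2201 aligned bases, so the split of reads between them is an estimate. Hspa1a stood at 2.65 and 2.97 TPM (2.81 ± 0.226, SD, n = 2), from 219 and 218 counts. Hspa1b stood at 6.62 and 5.50 TPM (6.06 ± 0.792), from 514 and 382 counts. Hspa1b was the higher of the pair in both libraries. The estimated counts of both carried the same deposited posterior SD, 4.22 counts in replicate 1 and 6.78 in replicate 2. Their sum, 733 and 600 counts, does not depend on the split between them. Gm20481, annotated on the opposite strand over Hspa1a, had 0 counts in both libraries.

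The inducible pair was far below the constitutive gene. Hspa1a and Hspa1b together made 9.27 and 8.47 TPM, against 1043 and 1142 TPM of Hspa8. The log2 ratio of the inducible sum over Hspa8 was −6.94 ± 0.18 (SD, n = 2), with the sum 112 times lower in replicate 1 and 135 times lower in replicate 2. The difference between the genes exceeded the difference between the libraries.

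The promoters of the inducible genes held matches to the element that heat shock factor 1 binds. Windows of 250 bases before to 50 after a start site on GRCm38.p6 came from a table of RefSeq promoters, and those of 6 of the 10 genes were used. Windows of Hsp90aa1, Hsp90ab1, Hspa8 and Hspa9 were not analysed here. A heat shock element is built from inverted GAA units, and the search used GAANNTTC (head to head), TTCNNGAA (tail to tail) and the 3-unit GAANNTTCNNGAA. Each motif was read on both strands, and the shorter motifs lie inside the longer. The Hspa1a window is chr17:34972107-34972406 and the Hspa1b window is chr17:34959189-34959488, both on the minus strand. They are shown because the genes share nearly all of this sequence, with the heat shock element in capitals.
Hspa1a: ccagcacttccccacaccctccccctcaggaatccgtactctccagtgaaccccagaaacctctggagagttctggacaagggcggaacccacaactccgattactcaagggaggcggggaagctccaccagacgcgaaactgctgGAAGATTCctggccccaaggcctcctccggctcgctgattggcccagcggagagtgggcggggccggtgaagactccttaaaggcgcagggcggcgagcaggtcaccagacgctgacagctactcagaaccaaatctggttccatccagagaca
Hspa1b: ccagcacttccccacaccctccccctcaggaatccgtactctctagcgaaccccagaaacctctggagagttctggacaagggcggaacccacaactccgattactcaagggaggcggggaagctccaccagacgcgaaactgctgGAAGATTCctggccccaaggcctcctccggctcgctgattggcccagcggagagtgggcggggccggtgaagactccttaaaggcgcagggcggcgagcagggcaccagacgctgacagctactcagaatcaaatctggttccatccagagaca
The windows matched at 296 of 300 positions. Counted from 1 at the 5′ end, with the Hspa1a base first, they differed by C44T, T47C, T249G and C276T. Neither the head-to-head element, at −104 to −97 from the start site, nor the reversed CCAAT box at −67 to −63 was touched by these changes. Of all 32851 windows of this length, 7.86% held GAANNTTC and 37.4% held CCAAT or its reverse.

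Hspa4 encodes an HSP110-type protein that releases nucleotide from HSP70. It stood at 57.5 and 59.1 TPM (58.3 ± 1.16, SD, n = 2), from 7126 and 6037 counts. The gene (ENSMUSG00000020361) lies on the minus strand of chromosome 11, from 53259814 to 53300457. The log2 ratio of Hspa4 over Hspa8 was −4.23 ± 0.06, with Hspa4 18.1 and 19.3 times lower. The Hspa4 window held no match to either 2-unit heat shock element.

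The mitochondrial HSP70, mortalin, is encoded by Hspa9 and pulls proteins across the inner membrane. The gene (ENSMUSG00000024359, chromosome 18, minus strand, 34937414 to 34954357) stood at 104 and 103 TPM (103 ± 0.205). The log2 ratio of Hspa9 over Hspa8 was −3.40 ± 0.10, with the mitochondrial gene 10.1 and 11.1 times lower. Hspa9 was above Hspa4 in both libraries, and Gm22200 and Gm26109, small nucleolar RNA genes inside it, had 0 counts.

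The HSP90 pair was led by the constitutive isoform. Hsp90ab1, HSP90 beta (ENSMUSG00000023944, chromosome 17, minus strand, 45567775 to 45573271), stood at 990 and 951 TPM (971 ± 27.8, SD, n = 2). Hsp90aa1, HSP90 alpha, which is both expressed at rest and raised by heat shock (ENSMUSG00000021270, chromosome 12, minus strand, 110690605 to 110702728), stood at 329 and 367 TPM (348 ± 26.8). The log2 ratio of Hsp90ab1 over Hsp90aa1 was 1.48 ± 0.15, or 3.01 in replicate 1 and 2.59 in replicate 2 as a plain ratio. Hsp90ab1 was higher in both libraries, by more than either gene differed between them. Hsp90ab1 drew more reads than Hspa8, at 66620 and 57053 counts, and was lower than Hspa8 only per transcript length.

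The partners of the mitochondrial chaperonin lay between these levels. Hspe1, which encodes the HSP10 lid (ENSMUSG00000073676, chromosome 1, plus strand, 55088132 to 55091307), stood at 227 and 235 TPM (231 ± 6.02, SD, n = 2). Hspd1, which encodes HSP60 (ENSMUSG00000025980, chromosome 1, minus strand, 55077835 to 55088243), stood at 139 and 164 TPM (151 ± 17.2). Hspe1 was higher than Hspd1 in both libraries, by a log2 ratio of 0.61 ± 0.13, or 1.63 and 1.44 as a plain ratio. With expected counts divided by annotated length in place of TPM, that log2 ratio was 0.38.

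Hspd1 and Hspe1 are divergent genes whose annotated ends overlap by 112 bases on opposite strands, and whether reads were counted by strand is not given in the sources used here. All counts of Hspd1 were on ENSMUST00000027123, which begins at 55088024 and does not reach Hspe1. The 2 annotated Hspd1 transcripts that begin at 55088243, within the overlap, had 0 counts in both libraries. RefSeq places Hspe1 at a start site of 55088148 and Hspd1 at 55088243 and at 55087932. The Hspe1 window, chr1:55087898-55088197 on the plus strand, shares 285 bases with the window of the inner Hspd1 start and is shown because a single heat shock element lies in both windows.
Hspe1: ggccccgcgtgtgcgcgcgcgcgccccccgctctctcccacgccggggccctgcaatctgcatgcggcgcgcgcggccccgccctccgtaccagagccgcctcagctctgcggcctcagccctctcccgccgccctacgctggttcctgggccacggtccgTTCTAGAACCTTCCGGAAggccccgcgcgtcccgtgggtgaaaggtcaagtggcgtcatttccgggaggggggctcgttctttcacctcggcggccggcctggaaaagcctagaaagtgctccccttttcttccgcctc
The capitals mark an element of 4 alternating units, from −89 to −72 of the Hspe1 start and from −144 to −127 of the inner Hspd1 start. These are RefSeq starts. ENSMUST00000027123, which drew all Hspd1 counts, begins at 55088024, which is neither RefSeq start of Hspd1, so the distances are not from its start. The element matched the 3-unit motif on both strands, a motif held by 0.603% of all windows. The window of the outer Hspd1 start held no heat shock element of either 2-unit form. A match is a description of these letters and not evidence that the element is bound.

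Hspb1 encodes HSP25 (the mouse counterpart of human HSP27), a small heat shock protein that holds unfolded proteins without ATP. The gene (ENSMUSG00000004951, chromosome 5, plus strand, 135887919 to 135889563) drew 0 counts in either library. Such a count leaves room for as much as 0.0741 CPM in replicate 1 and 0.0841 CPM in replicate 2, CPM being the count relative to the library's depth. That limit covers counting error only. Both annotated transcripts were at 0. So were Hsp25-ps1, a pseudogene that is 99.4% identical over 630 bases, and Gm9817, a locus on the opposite strand that is 99.8% identical over 493 bases, so no reads of this sequence were assigned to another copy in the tables. The Hspb1 window, chr5:135887669-135887968 on the plus strand, is shown as the window of the undetected gene, with its heat shock elements in capitals.
Hspb1: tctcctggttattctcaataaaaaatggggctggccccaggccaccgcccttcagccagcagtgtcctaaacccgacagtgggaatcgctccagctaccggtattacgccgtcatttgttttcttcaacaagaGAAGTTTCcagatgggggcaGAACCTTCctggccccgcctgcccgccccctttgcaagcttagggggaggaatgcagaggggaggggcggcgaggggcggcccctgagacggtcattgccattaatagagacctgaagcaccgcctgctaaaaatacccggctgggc
It held GAANNTTC at −117 to −110 and at −97 to −90. The window of the gene at 0 counts, both windows of genes below 10 TPM and the shared window of genes above 100 TPM all held a 2-unit element. In all, 5 of the 7 windows, from 5 of the 6 genes with a window, held such an element, and 15.1% of all windows did. Hspd1 and Hspe1 share a single site in that count, and the Hspa1a and Hspa1b windows are nearly identical, so these are not separate matches.

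**Figure D2:**
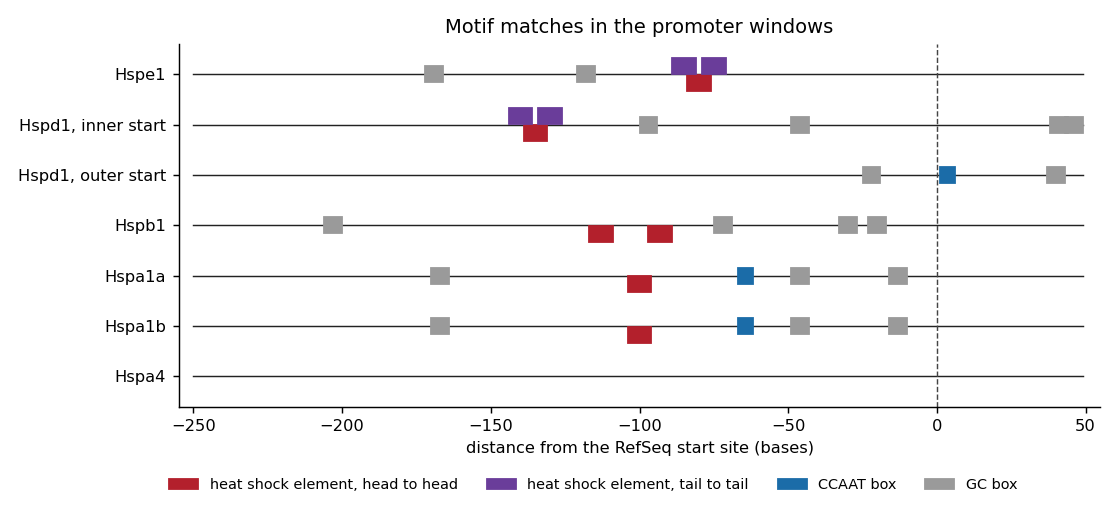
Matches to 4 motifs in the 7 promoter windows of 6 genes, by distance in bases from the RefSeq start site (dashed line). Red and purple boxes are head-to-head and tail-to-tail heat shock elements, which overlap in Hspe1 and at the inner Hspd1 start; Hspa4 and the outer Hspd1 start have none.

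In the order of mean level (Hspa8, Hsp90ab1, Hsp90aa1, Hspe1, Hspd1, Hspa9, Hspa4, Hspa1b, Hspa1a, Hspb1), the libraries of neighbouring genes overlapped in 0 of 9 pairs. The closest pair was Hspa8 and Hsp90ab1, whose means differed by a factor of 1.13, and the widest step between detected genes was Hspa4 over Hspa1b, a factor of 9.62. With 2 libraries the order was not tested.

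The 9 detected genes differed by less than 2-fold between the libraries, as did most protein-coding genes of 1 TPM or more. The log2 ratio of replicate 2 over replicate 1, on TPM + 1, lay between −0.23 for Hspa1b and 0.23 for Hspd1. Of the 7 genes of 10 TPM or more, 0 were over 2-fold apart, beside 3.13% of protein-coding genes at that level. Of the 9 genes of 1 TPM or more, 0 were over 2-fold apart, beside 7.52%. With so few genes, counts of 0 do not set them apart from these shares. The median size of the log2 ratio was 0.06 for the 7 genes and 0.23 for all protein-coding genes of 10 TPM or more. With expected counts scaled by edgeR's TMM factors, an alternative chosen after seeing the data, these medians were 0.12 and 0.20. The 2 sets of genes were not matched for level. All 9 ratios lay within the SD that edgeR's trended dispersion gives for genes of the same abundance. The fit used the counts of these same 2 libraries, and the share of all genes within that SD was not computed. Lying within it therefore does not set the 9 genes apart. That dispersion corresponded to a coefficient of variation of 0.389 for Hspa1a and 0.125 for Hspe1.

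By TPM, 6 of the 9 genes were higher in replicate 2, but for 3 of them the direction depended on the scaling. The log2 ratio was 0.16 for Hsp90aa1, 0.13 for Hspa8 and 0.04 for Hspa4 by TPM. It was −0.01, −0.03 and −0.14 for the same genes with expected counts scaled by edgeR's TMM factors. The effective length that the authors' TPM divides by was shorter in replicate 2 for each, for example 1738 bases in replicate 1 and 1628 in replicate 2 for Hspa8. These genes have several transcripts, whose estimated shares enter that length. For Hspd1, Hspa1a and Hspa1b, each on a single transcript, it was slightly longer in replicate 2. In Hspd1 it was 2263 bases in replicate 1 and 2266 in replicate 2. Hspd1 was higher in replicate 2 under either scaling, at 0.23 and 0.17, and Hspa1b was lower, at −0.23 and −0.30.

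**Figure D3:**
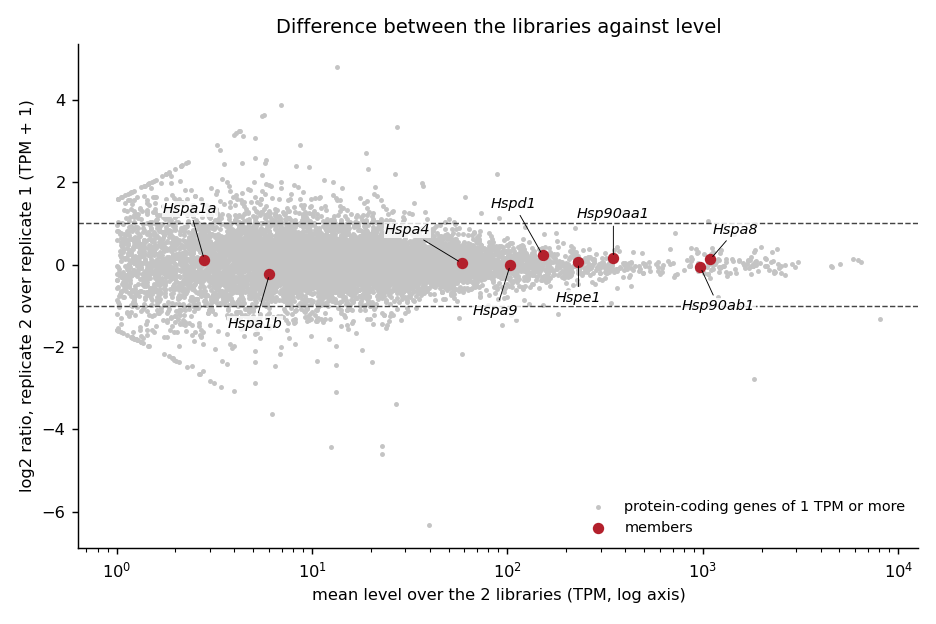
Log2 ratio of replicate 2 over replicate 1 (TPM + 1) against mean TPM (log axis) for protein-coding genes of 1 TPM or more (grey) and the 9 detected heat shock genes (red). Dashed lines mark 2-fold, and all 9 lie between −0.23 and 0.23.

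Reads were divided between some of these genes and their processed copies elsewhere in the genome. At 95% identity over 200 bases or more, 18 loci matched 7 of the 10 genes, 15 of them had a row in the tables and 8 had counts. Gm8355 on chromosome 10 (14745362 to 14747302), a pseudogene 98.7% identical to the Hspa8 transcript over 1941 bases, had 1149 and 486 counts. Its deposited length was 756 bases in replicate 1, shorter than that alignment, and its level was 65.7 and 30.9 TPM. Gm15459 on chromosome 5 (5781615 to 5783555), 99.7% identical to the Hspa8 transcript, had 537 and 601 counts, or 10.26 and 12.85 TPM. Gm12346 on chromosome 11 (77293444 to 77295898), 99.5% identical to the Hsp90aa1 transcript over 2255 bases, had 105 and 205 counts. In counts, the loci were small beside the parent genes. All such loci came to 3.17% and 2.24% of the counts of Hspa8, 0.446% and 0.840% of Hsp90aa1, and 0.446% and 0.470% of Hspd1. Their share of TPM was not computed, and Hspa8 itself stood at 1043 and 1142 TPM.

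The deposited posterior SD of a count states how uncertain this division of reads was, among loci that have a row. The 1 near-identical locus of Hspe1 had no row, and 7 of the 9 loci of Hspa8 had one. Of the 7 genes of 10 TPM or more, 3 (Hspa4, Hspa9 and Hspe1) had a posterior SD of 0 in both libraries, beside 83.5% of protein-coding genes at that level. Hspa8 had the largest, at 74.5 and 57.9 counts, which was 0.140% and 0.119% of its count. For Hspa1a the posterior SD was 1.93% and 3.10% of the count. Added to their loci, the estimated counts of Hspa8, which are not whole, came to 54937 and 49808, those of Hsp90aa1 to 27565 and 25622, and those of Hspd1 to 9294 and 9755, each within 0.01 of a whole number.

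The transcript tables held 41 transcripts of the 10 genes, and 32 had a share above 0 in a library. A share is the percent of a gene's TPM on a transcript. No share differed by 20 points or more between the libraries, and the largest difference was 11.4 points. Hspd1, Hspa1a and Hspa1b had 100% on a single transcript in both. Hspe1 had 99.8% and 97.6% on ENSMUST00000075242, Hsp90ab1 had 96.1% and 95.9% on ENSMUST00000024739, and Hspa9 had 92.9% and 88.1% on ENSMUST00000025217.

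In the other detected genes the estimate was divided. Hsp90aa1 had 52.5% and 49.8% on ENSMUST00000021698 and 45.1% and 40.1% on ENSMUST00000094361, coding transcripts that share 8 of 11 exons. Hspa8 had 44.0% and 48.6% on ENSMUST00000117557 and 33.9% and 25.3% on ENSMUST00000015800, coding transcripts that share 7 of 9 exons. The first exon of ENSMUST00000015800 is longer by 318 bases and another exon, ending at 40802891, by 57 bases, so the share does not tell which of these stretches was covered. Hspa4 had 84.7% and 73.4% on its leading coding transcript, ENSMUST00000020630, and 15.3% and 20.5% on ENSMUST00000151854, which has no coding annotation. Transcripts with a retained intron held 13% and 16.7% of Hspa8 and 1.53% and 9.59% of Hsp90aa1. As a share of counts these were 6.42% and 6.39% for Hspa8 and 0.413% and 1.65% for Hsp90aa1.

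**Figure D4:**
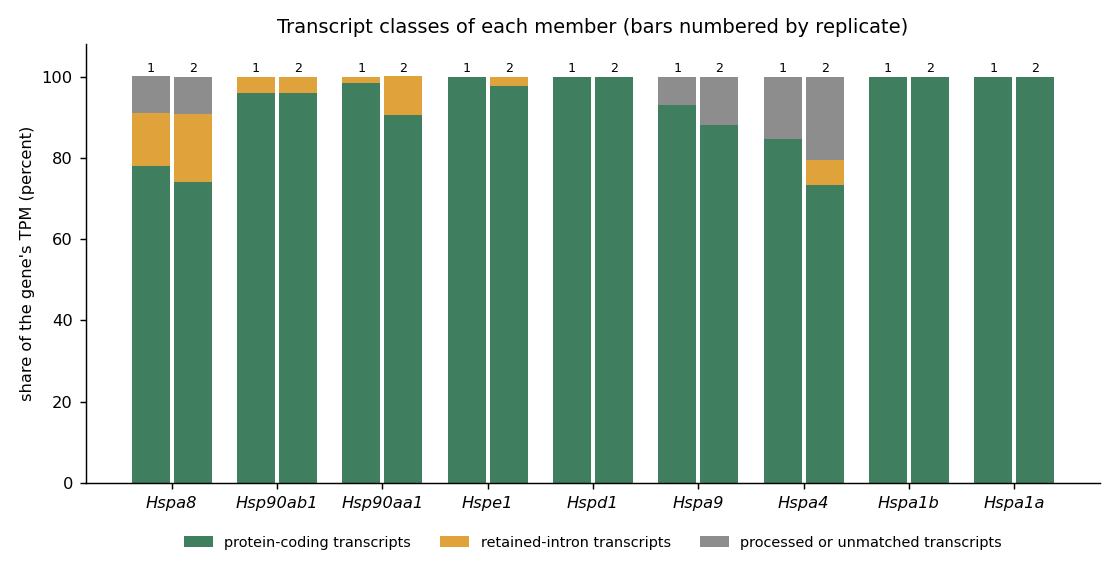
Share of each gene's TPM (percent) on coding, retained-intron and other transcripts, with the left bar of each pair for replicate 1 and the right bar for replicate 2. Coding transcripts hold 100% of Hspd1, Hspa1a and Hspa1b, and 77.9% and 74.1% of Hspa8.

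The genes that regulate and assist these chaperones were described from 7 lists of 63 genes, of which 62 had a row (Hspa14 had none) and 48 reached 1 TPM in both libraries, beside 45.6% of all protein-coding genes. Among the heat shock factors and their binding protein, 3 of 4 did. Hsbp1, which binds and restrains heat shock factor 1, stood at 76.2 and 63.2 TPM, and Hsf1, which drives the heat shock response, at 16.9 and 21.5 TPM. Hsf2 stood at 3.75 and 4.69 TPM, and Hsf4, known from the lens, had 0 counts. Hsf1 was above Hspa1a and Hspa1b in both libraries.

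Partners of cytosolic HSP70 were mostly detected. Of all protein-coding genes, 45.6% reached 1 TPM in both libraries. Of 10 J-domain genes, 8 reached 1 TPM in both libraries, led by Dnajb6 at 61.6 and 69.0 TPM, Dnaja1 at 60.8 and 61.2 TPM and Dnajc7 at 38.8 and 61.8 TPM. Of 9 exchange and partner genes, all 9 did, led by St13, the HSP70-interacting protein Hip, at 59.0 and 77.9 TPM, Bag1 at 69.9 and 64.9 TPM and Bag6 at 44.8 and 52.9 TPM. Of 6 other HSP70 family genes with a row, 2 did, namely Hsph1 at 18.1 and 17.4 TPM and Hspa4l at 7 and 10.8 TPM, which are both HSP110-type. Hspa2, typical of testis, stood at 3.51 and 0.920 TPM. Hspa1l, Hspa12a and Hspa12b had 0 counts in both libraries. The 10 J-domain genes summed to 284 and 314 TPM, below the level of Hspa8 alone.

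All 14 HSP90 cochaperone genes reached 1 TPM in both libraries, beside 45.6% of all protein-coding genes. Their median was 44.6 TPM. They were led by Fkbp4, an immunophilin of steroid receptor complexes, at 118 and 103 TPM, Ptges3, which encodes p23, at 98.0 and 105 TPM, and Ahsa1, an activator of the HSP90 ATPase, at 91.3 and 86.7 TPM. The list summed to 678 and 752 TPM, below the level of Hsp90ab1 alone. All 10 mitochondrial partner and protease genes reached 1 TPM as well. Trap1, the mitochondrial HSP90, stood at 60.2 and 58.3 TPM, Dnajc19, a J-domain protein of the import motor, at 30.7 and 42.1 TPM, and Hscb, a J-domain protein of iron-sulphur cluster assembly, at 32.6 and 38.5 TPM. Trap1 was below Hspa9 and Hspd1 in both libraries.

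Other genes listed here as small heat shock proteins were, like Hspb1, mostly undetected, and what each protein is was not examined. Of 9, 2 reached 1 TPM in both libraries, beside 45.6% of all protein-coding genes. The 2 were Hspb11 at 3.70 and 8.65 TPM and Hspb6 at 7.13 and 1.80 TPM. Cryab had 0 and 0.520 TPM, and Hspb2, Hspb3, Hspb7, Hspb8, Hspb9 and Cryaa had 0 counts in both. These were 6 of 9 genes, beside 42.5% of all protein-coding genes. Of the 50 genes of these 7 lists at 1 TPM or more on average, 5 were over 2-fold apart between the libraries, beside 7.52% of all protein-coding genes at that level. They were Hspa2, Dnajb2, Dnajb5, Hspb6 and Hspb11. Dnajb2 and Dnajb5 were named after their values were seen, at 1.94 and 0.320 TPM and at 7.76 and 2.10 TPM.

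**Figure D5:**
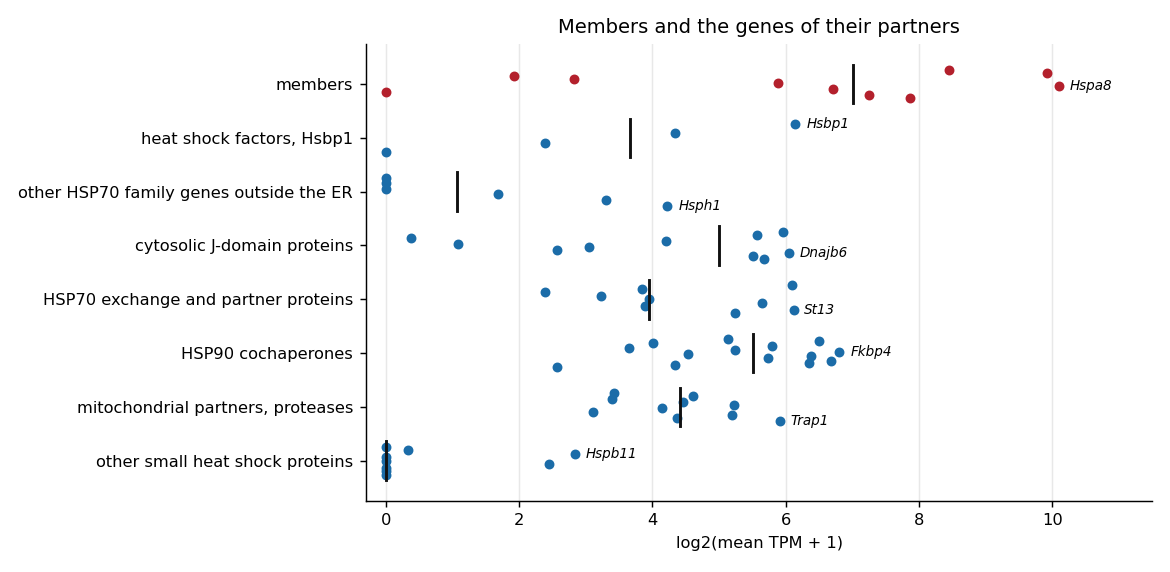
Mean level, log2(mean TPM + 1), of the 10 heat shock genes (red) and of the genes in 7 partner lists (blue), with the median of each list as a black bar and its highest gene named. Medians are 127 TPM for the 10 genes, 44.6 TPM for HSP90 cochaperones and 0 TPM for the genes listed as other small heat shock proteins.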

How the data were processed

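Total RNA-seq of 2 GMP libraries of 1 group was used, numbered as in the labels. Expected counts, TPM and FPKM per gene, each transcript's percent of the TPM of its gene, and a posterior SD of the count (a signal of the uncertainty of read assignment) are as the authors deposited them. Text files that the authors deposited name mm10, annotation M4 and a transcriptome alignment. The aligner, the quantifier and any use of strand in counting are, for these values, not given in the sources used here. TPM is scaled over all rows and not over protein-coding genes alone. TPM and FPKM divide by effective length. It depends on the fragment length of a library and, for a gene with several transcripts, on their estimated shares.

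Symbols, biotypes, spans and exons came from GENCODE M21 on GRCm38 by Ensembl identifier without version, and 42462 of 43346 Ensembl rows matched. The 10 genes and all lists were chosen with earlier results of these data known. All 10 genes are named, with the 3 highest genes of each partner list and those at 0 counts in both libraries, the highest gene of each marker list, the leading transcript of each gene and the 3 near-identical loci with the most counts; other transcripts and loci, and genes so marked, were picked with their values in view. Means are given with the SD over the 2 libraries. Ratios between genes are log2 ratios of TPM in each library, and ratios between libraries use a pseudocount of 1. No test was run, as there is 1 group. Expected counts were rounded to whole numbers, and edgeR 4.0.16 (R 4.3.3) estimated their dispersion with TMM factors over 13930 rows with 10 counts in at least 1 library. The model had an intercept alone and so 1 residual degree of freedom. Near-identical loci were found with BLAST 2.17.0 (blastn). A count of 0 allows up to 3 counts. DESeq2 1.42.0 was an alternative. Python 3.11.15, numpy 2.4.6, pandas 2.3.3 and matplotlib 3.10.9 did the rest. The dispersion estimate and a 2-fold call on CPM were tried on counts simulated with a single spread for all genes. The steps on TPM, transcripts, near-identical loci and promoters were not tried in this way. Immediate early genes, which are raised by handling of cells, are given in the closing section.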

Additional observations from a re-analysis of the deposited data

How the results depend on the processing

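No paired analysis was possible because there is 1 group. In all, 102 values were recomputed under other pseudocounts, units, filters and scalings and with each replicate left out. Of these, 81 stayed within the spread between the libraries or within 1.5 times a count, and 21 moved. With 2 libraries, leaving 1 out cannot move a ratio between genes, or levels as close as these, beyond that spread. A change of sign was called only for log2 values of 1 or more in size, and 0 were called. Below that size, 6 ratios between libraries took another sign. Over the ratios between genes, expected counts per annotated length gave 0.38 for Hspe1 over Hspd1 and −4.15 for Hspa4 over Hspa8, and adding the near-identical loci gave −4.30 for Hspa4 over Hspa8. The median size of the 7 ratios between libraries was 0.12 with TMM and with DESeq2 factors, against 0.06 by TPM. The other 16 concern single genes, 9 of them levels with TPM rescaled over protein-coding genes alone, which makes every level of a detected gene 2.03 times higher in both libraries and leaves ratios between genes as they are. With either replicate left out, the log2 ratio was 1.37 to 1.59 for Hsp90ab1 over Hsp90aa1, −7.07 to −6.81 for Hspa1a plus Hspa1b over Hspa8, 0.52 to 0.70 for Hspe1 over Hspd1, −3.47 to −3.33 for Hspa9 over Hspa8 and −4.27 to −4.18 for Hspa4 over Hspa8. The counts of 9 genes detected and 0 over 2-fold apart were the same under each alternative run for them. Over all rows the common coefficient of variation was 0.593, and 0.613 with no filter on low counts. The ratio between libraries took another sign under TMM and under DESeq2 factors for 3 genes, so no order of the libraries is read for them. The libraries number 2 and come from pools of 100 cells, and what each of sample number, pool size and depth adds to the error was not compared.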

Other observations

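Genes raised within minutes when cells are handled were present at low to moderate levels beside the heat shock genes. Of 10 immediate early genes, 7 reached 1 TPM in both libraries, beside 45.6% of all protein-coding genes. They were led by Zfp36 at 24.5 and 33.5 TPM, Fos at 16.8 and 24.2 TPM and Ier2 at 15.9 and 21.2 TPM. Atf3 had 0 counts in both. Of the 7 genes of 1 TPM or more on average, 1 was over 2-fold apart, beside 7.52% of all protein-coding genes at that level. It was Junb, at 1.54 and 6.71 TPM, named after its values were seen. The list summed to 79.6 TPM in replicate 1 and 112 TPM in replicate 2, while Hspa1a and Hspa1b together made 9.27 and 8.47 TPM. Dnajb1, a J-domain partner induced with them in heat shock, stood at 19.1 and 15.9 TPM, and Bag3, an exchange factor likewise induced, at 4.65 and 3.79 TPM. Dnajb1 and Bag3 were chosen after their values were seen. The part of cell handling in these levels was not tested.

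Dnajb5 had more counts in replicate 2 (149, against 96 in replicate 1) and a lower TPM (2.10, against 7.76). The direction of its difference between the libraries depended on the unit.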
